A study of Mus musculus with 24 samples.

Results

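The comparison covers the 6 arrays taken immediately after a hypoxic exposure, the 0 h time point: 3 pools of retinas from hypoxic mice against 3 pools from normoxic mice. They were chosen by their labels alone and are 6 of the 24 arrays of a time course that also holds 2 h, 4 h and 16 h of reoxygenation. All 45037 non-control probe sets of the Affymetrix mouse whole-genome array were compared, with no selection by outcome. The mice were of the albino BALB/c strain, and both groups were homozygous for the leucine variant of Rpe65 that leaves rods sensitive to light damage. The hypoxic mice breathed 6% oxygen for 6 h, the normoxic controls were kept in room air in parallel, and the retinas were removed at once and frozen. Each pool held 3 retinas from 3 mice, and 3 independent pools were made per group. Their ages and sexes were not used here. The study addressed the changes in retinal gene expression that accompany a hypoxic preconditioning that protects photoreceptors from light.

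When oxygen falls, prolyl hydroxylases of the Egln family stop marking the alpha subunits of hypoxia-inducible factors (HIF) for the Vhl ubiquitin ligase. The stabilised subunits pair with Arnt and switch on genes for glucose transport, glycolysis, vessel growth and the hydroxylases themselves. Retinal photoreceptors use very large amounts of oxygen, they ferment glucose to lactate even in air, and their outer side is supplied by the retinal pigment epithelium (RPE) and the choroid behind it. A separate response, run through the transcription factor Atf4, follows a shortage of amino acids or stress in the endoplasmic reticulum.

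The change was broad. A probe set was tested when the mean signal of either group reached 6.69 on the log2 scale, the low point between the 2 peaks of the signal distribution, and called when its Benjamini-Hochberg adjusted p in limma was below 0.05. Of 18799 probe sets tested, 6091 were called, or 32.4%, with 2849 higher (15.2%) and 3242 lower (17.2%) after hypoxia. Most changes were small: the median of the called rises was 0.43 and that of the called falls -0.42 on the log2 scale, and 427 called probe sets (2.27%) passed 2-fold, 267 of them higher and 160 lower. Counted by gene, with each gene read from its brightest probe set, 10174 genes were tested and 3442 were called (33.8%), 1564 higher (15.4%) and 1878 lower (18.5%). Of these, 191 (1.88% of the genes tested) passed 2-fold, 120 of them higher and 71 lower. These shares are the background for the gene groups below. The groups were written with earlier results of these data known, so their shares are descriptions and not tests. The median change over all genes tested was -0.01, a centre that the normalization between arrays sets.

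**Figure D1:**
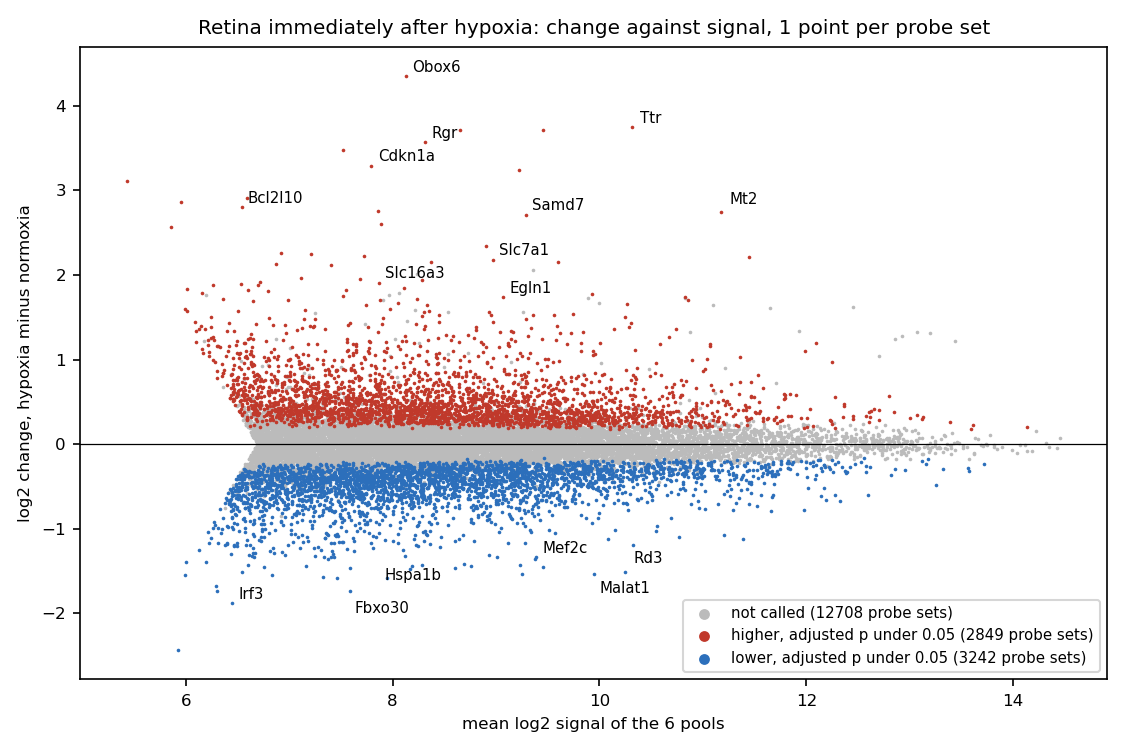
Each point is 1 of the 18799 probe sets tested, with the mean log2 signal of the 6 arrays on the horizontal axis and the log2 difference, hypoxia minus normoxia at 0 h, on the vertical axis; called probe sets are coloured by direction. The called points lie on both sides of 0 at all signal levels, with the highest rises (Obox6 at 4.36 and Ttr at 3.75) farther from 0 than any fall (-2.44).

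The arrays fell into their labelled groups. The mean distance of a hypoxic array to its own group was 45.9 to 49.2 and of a normoxic array 55.7 to 62.3, against 73.4 to 81.1 to the other group (Euclidean distance over log2 values). All 24 rod markers on the array were above the signal threshold. All 18 lens markers on the array, most of them crystallins, were above it too. Normoxia pool 2 stood apart in these: the log2 of its summed lens marker signal was 12.56, against 16.13 and 16.58 in the other normoxic pools and 15.92 to 17.16 in the hypoxic pools. Cryaa, an alpha crystallin, read 14.31, 14.10 and 13.74 in the hypoxic pools and 13.99, 10.38 and 14.14 in the normoxic pools. No lens marker was called by limma, 15 of 18 had an unadjusted p below 0.05, and their median change of 1.63 became 0.33 without normoxia pool 2. Results that rest on this pool are given below with and without it.

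Among genes with signal above the threshold in both groups, the transthyretin gene Ttr had the largest rise, and genes of metal binding, amino acid uptake, growth arrest and sugar handling followed. Ttr, a carrier of thyroid hormone and retinol made in the RPE, read 12.08, 12.32 and 12.17 in the hypoxic pools and 8.04, 9.04 and 8.25 in the normoxic pools. Its rise was 3.75 ± 0.51 on the log2 scale (SE, 3 pools per group, limma adjusted p = 8.45e-06), or 13.4-fold. The metallothioneins Mt2 and Mt1, small zinc-binding proteins, rose by 2.75 and 2.21 from levels that were already high. Mt1 read 12.51, 12.53 and 12.61 after hypoxia and 10.29, 10.44 and 10.28 in normoxia, so the pools of each group lay close together and the groups far apart.

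The next rises came from several classes. Slc7a1, a transporter of cationic amino acids, rose by 2.18, and Gadd45b, a stress-induced growth arrest gene, by 2.15. Slc37a4, which carries glucose 6-phosphate into the endoplasmic reticulum, had the lowest adjusted p of the 15 highest rises: 10.58, 10.99 and 10.89 after hypoxia against 9.17, 9.10 and 8.86 in normoxia, a rise of 1.77 ± 0.10 (adjusted p = 1.4e-10). Slc16a3, the lactate exporter of glycolytic cells, rose by 1.91, the high mobility group gene Hmgb2 by 1.74, and Selenbp1, a selenium-binding protein, by 1.60. Non-overlapping pools were a condition for naming these genes, and 45.4% of all probe sets tested met it.

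Samd7, a rod gene that takes part in Polycomb silencing, rose in both of its probe sets but not equally. The probe set with the larger change read 10.55, 10.63 and 10.76 after hypoxia and 7.56, 8.15 and 8.08 in normoxia, a rise of 2.71 ± 0.21 (adjusted p = 8.67e-09). The brighter probe set rose from 9.70, 9.78 and 9.89 to 10.84, 10.83 and 11.03, by 1.11. The pools of both groups were apart in each, which for the probe set with the larger change was a condition for naming it. Only the size of the change depended on the probe set.

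Some of the largest rises started below the signal threshold, where the normoxic level is not well measured, so no fold is given for them. Obox6, a homeobox gene known from the oocyte, read 10.46, 10.05 and 10.42 after hypoxia and 5.83, 6.01 and 6.02 in normoxia, a difference of 4.36 ± 0.24 (adjusted p = 1.12e-10). Cdkn1a, the p21 inhibitor of cyclin-dependent kinases, read 9.74, 9.08 and 9.50 against 6.49, 5.90 and 6.05. Pon1 (paraoxonase) differed by 2.91, H1f8, the oocyte linker histone, by 2.86, and Bcl2l10, a member of the Bcl2 family also known from the oocyte, by 2.80. These genes were named only where the pools of the 2 groups did not overlap, as in 45.4% of all probe sets tested.

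The largest falls were smaller than the largest rises. The largest of any probe set, -2.44, belonged to a probe set shared by the cold-inducible gene Rbm3 and its pseudogene, named here after its value was seen, so its gene is uncertain. Fbxo30, which encodes an F-box protein, read 6.21, 7.21 and 6.76 after hypoxia and 8.25, 8.51 and 8.61 in normoxia, a fall of 1.73 on the log2 scale in 1 of its 3 probe sets. Rd3, a photoreceptor protein that restrains guanylate cyclase, fell from 11.04, 11.04 and 10.93 to 9.01, 9.74 and 9.73. Hypoxia pool 1 was the lowest pool in both of these probe sets, and non-overlapping groups were a condition for naming them. Other falls were those of the chaperone gene Hspa1b (by 1.46), Ciao1, which assembles iron-sulphur proteins in the cytosol (by 1.43), Lyve1, a hyaluronan receptor (by 1.34), and the transcription factor gene Mef2c (by 1.33). Among genes that ended below the threshold, Irf3, which switches on interferon genes, differed by -1.88 and the mitotic checkpoint gene Bub1b by -1.73 in the probe sets with the largest change.

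For several of these genes the probe sets of 1 gene disagreed. The brightest probe set of Fbxo30 read 8.15, 8.13 and 8.04 after hypoxia and 7.86, 8.44 and 8.35 in normoxia, a difference of -0.11 with overlapping groups (adjusted p = 0.549), and the other one fell by 0.39. Malat1, a nuclear long non-coding RNA, fell by 1.54 and by 1.14 in a pair of its probe sets and rose by 1.16 in another, each called, while the brightest of the 7 tested differed by -0.30 (adjusted p = 0.475). Mrpl15, of the mitochondrial ribosome, fell by 0.50 to 0.74 in 4 probe sets and rose by 1.29 in another. Rprd2 rose by 2.26 in one, fell by 0.44 in another and differed by -0.28 in the brightest (adjusted p = 0.114), and the choline transporter gene Slc44a1 rose by 1.41 and fell by 0.59. In all, 104 of 4357 genes with several tested probe sets were called in opposite directions. For Ndufa12, a subunit of respiratory complex I, all 4 tested probe sets fell, but by 1.42 in one and by 0.24 to 0.34 in the others, and for Irf3 the brightest probe set fell by 0.65. The values for these genes belong to a probe set and not to the gene.

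Among the genes of oxygen sensing the largest rises were those of Egln1 and Egln3. Of 13 genes on the list, 6 rose and 1 fell (Arnt), 53.8% called against 33.8% of all genes, with a median of 0.20. Egln1, the main oxygen-dependent hydroxylase of HIF alpha subunits, read 11.65, 11.75 and 11.72 after hypoxia and 10.28, 9.97 and 9.77 in normoxia, a rise of 1.70 ± 0.12 (adjusted p = 3.94e-09). Egln3 rose by 1.17 from below the threshold. The third member, Egln2, read 9.28, 9.31 and 9.28 against 9.47, 9.37 and 9.17, a difference of -0.04 (adjusted p = 0.752), so the test was passed by Egln1 and Egln3 and missed by Egln2.

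The ubiquitin ligase genes of the pathway moved by less. Vhl, which binds hydroxylated HIF, rose by 0.49, and Siah2 and Siah1a, ligases that act on the Egln proteins, rose by 0.51 and 0.39. Hif1a, whose protein is controlled by oxygen, read 12.50, 12.45 and 12.40 against 12.57, 12.53 and 12.68, a difference of -0.14 (adjusted p = 0.217), and Epas1, the HIF-2 alpha subunit, differed by 0.10 (adjusted p = 0.496). Hif1an, the asparagine hydroxylase of HIF, differed by -0.14 (adjusted p = 0.253). Hif3a was called at 0.38 and Arnt at -0.24, but Arnt lost its call when any 1 of the 6 pools was left out (-0.20 to -0.27, adjusted p from 0.0551 to 0.157) and Hif3a when hypoxia pool 1, 2 or 3 or normoxia pool 2 or 3 was left out (0.33 to 0.43, adjusted p from 0.0539 to 0.147).

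The core of the HIF binding motif was then read in the promoters. The letters ACGTG, searched on both strands in the 300 bases from 250 before to 50 after each RefSeq start of build GRCm38.p6, stood in the promoters of 21.8% of 27025 genes and in 30.5% of the 8301 tested genes that had a promoter. The share was 37.2% of 1270 genes that rose, 47.5% of 99 that rose by over 2-fold, 29.8% of genes not called and 27.5% of 1538 that fell. Among the gene lists it was 5 of 7 for the collagen hydroxylases, 12 of 19 for the glycolytic enzymes and 10 of 16 for glycogen metabolism, but also 10 of 17 for the clock genes and 7 of 14 for the Müller glia markers. It was 2 of 14 for the angiogenic and vasoactive genes and 1 of 17 for the rod markers. A match is a description of the letters and not a binding site. The stretch around the match nearest the start is shown for 5 genes of the main HIF-linked lists, all of which rose, as examples of where the letters lie. Capitals mark ACGTG or its reverse complement, and each sequence runs 5′ to 3′ on the strand of its gene.
Egln1: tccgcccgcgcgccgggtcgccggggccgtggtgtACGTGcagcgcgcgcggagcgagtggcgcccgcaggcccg
Slc16a3: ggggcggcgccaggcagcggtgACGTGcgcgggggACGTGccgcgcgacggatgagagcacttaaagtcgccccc
Hk2: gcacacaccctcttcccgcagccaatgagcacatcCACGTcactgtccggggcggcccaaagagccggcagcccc
Ero1a: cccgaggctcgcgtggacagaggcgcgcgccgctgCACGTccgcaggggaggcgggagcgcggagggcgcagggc
P4ha2: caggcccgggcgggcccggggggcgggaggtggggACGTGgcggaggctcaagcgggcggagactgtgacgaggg
They lie at chr8:124949283-124949357 on the minus strand, chr11:120949018-120949092 on the plus strand, chr6:82774467-82774541 on the minus strand, chr14:45318596-45318670 on the minus strand and chr11:54100899-54100973 on the plus strand, in that order. Slc16a3 holds 2 copies within this stretch.

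Most of the tested transporter genes of glucose and lactate rose. Of 8 transporter genes tested, 7 rose (87.5%, against 15.4% of all genes) and 1 did not pass. The median was 0.47, against -0.01 over all genes. Slc2a1, the glucose transporter of the blood-retina barrier and of photoreceptors, read 12.09, 12.14 and 12.01 after hypoxia and 11.57, 11.42 and 11.48 in normoxia, a rise of 0.59 ± 0.09 (adjusted p = 4.25e-05). The neuronal glucose transporter Slc2a3 rose by 0.57. The lactate exporter Slc16a3 read 8.46, 8.97 and 9.03 against 7.45, 7.10 and 6.19, and the lactate transporters Slc16a1 and Bsg, their accessory protein, rose by 0.31 and 0.30. Normoxia pool 3 was the lowest of the normoxic pools for Slc16a3.

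Among glycolytic enzymes the largest rises were at the hexokinase and phosphofructokinase steps. Of 19 tested, 6 rose and 13 did not pass, a share of called genes (31.6%) close to the background of 33.8%, with a median of 0.23. Hk2, an inducible hexokinase that traps glucose in the cell, read 12.76, 12.66 and 12.80 after hypoxia and 12.00, 11.93 and 11.36 in normoxia, a rise of 0.97. Pfkfb3, which makes the activator of phosphofructokinase, rose from 7.04, 7.10 and 6.92 to 8.31, 8.18 and 8.13, by 1.19 ± 0.11 (adjusted p = 4.42e-08), and Pfkp, a phosphofructokinase subunit, by 0.58. Of the later enzymes, Pgk1, which makes ATP, rose by 0.32 and the lactate dehydrogenase gene Ldha by 0.30. Normoxia pool 3 was low for several of these genes, and without it the median of the list was 0.10.

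Some glycogen genes rose. Of 16 tested, 6 rose, 1 fell and 9 did not pass, 43.8% called against 33.8% of all genes, with a median of 0.26. Gys1, the synthase that builds glycogen, rose from 7.04, 7.00 and 6.75 to 7.77, 7.94 and 7.73, by 0.88. Ppp1r3g and Ppp1r3c, which bring a phosphatase to glycogen and activate the synthase, rose by 1.25 and 0.66, and Pgm1, which interconverts the glucose phosphates, by 0.77. Gyg, the protein primer of glycogen, went the other way, from 9.38, 9.44 and 9.52 to 8.94, 9.04 and 8.97, a fall of 0.46. Without hypoxia pool 1 the falls numbered 3, and without normoxia pool 3 they numbered 2. Pdk1, the kinase that shuts pyruvate out of the mitochondrion, rose by 0.61 and Dlat, of the pyruvate dehydrogenase complex itself, by 0.38.

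Part of the respiratory chain genes fell by small amounts. Of 77 nuclear-encoded subunits and cytochrome c genes tested, 27 fell (35.1%, against 18.5% of all genes) and 1 rose (1.3%, against 15.4%), while 49 did not pass, with a median of -0.15. Cycs, the electron carrier cytochrome c, read 11.15, 11.33 and 11.18 after hypoxia and 11.73, 11.58 and 11.73 in normoxia, a fall of 0.46 ± 0.11 (adjusted p = 0.00212). Ndufb2 and Ndufs8, of complex I, fell by 0.44 and 0.38, and Atp5e and Atp5l, of the ATP synthase, by 0.40 and 0.39.

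The single rise was Ndufa4l2, a paralogue of Ndufa4 that is known as a HIF target. It read 7.18, 7.46 and 7.16 after hypoxia and 6.70, 5.88 and 6.27 in normoxia, a difference of 0.98 ± 0.26 (adjusted p = 0.00544) from below the threshold. Ndufa4, chosen for comparison after its values were seen, fell from 11.81, 11.96 and 11.76 to 11.40, 11.55 and 11.52. Its signal is that of another probe set and the levels of the pair were not compared.

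**Figure D2:**
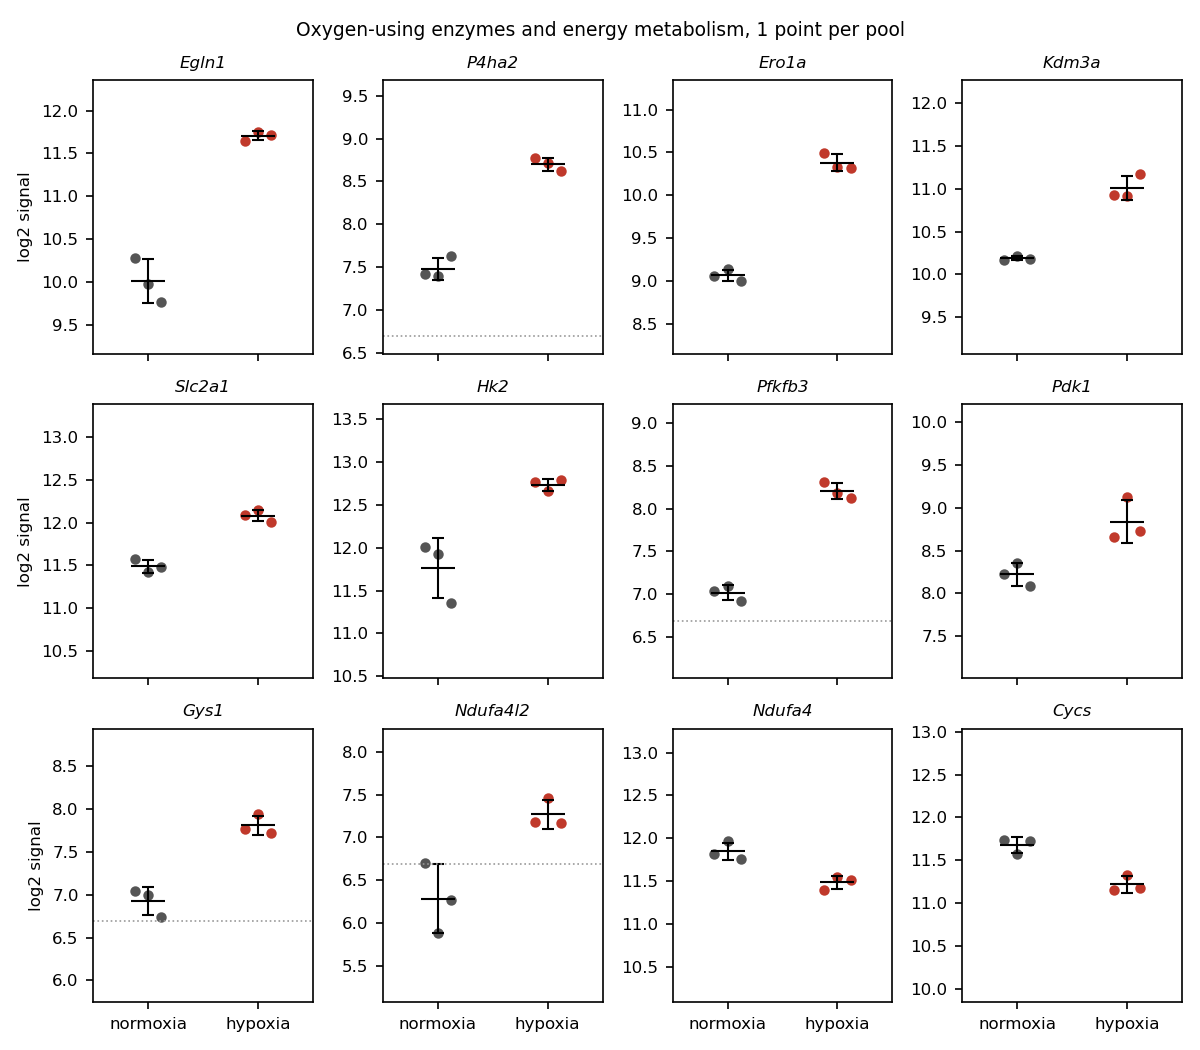
The 6 pools of 0 h are drawn as points for 12 genes of oxygen sensing and energy use, on the log2 signal scale, with bars for the mean and SD of 3 pools and a dotted line at the signal threshold of 6.69. Every panel spans the same number of log2 units, so the heights of the steps can be compared: Egln1 rose by 1.70, Slc2a1 by 0.59, and Cycs fell by 0.46.

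Most of the tested genes of collagen hydroxylation and oxidative folding rose. Of 16 on the array 9 were tested. Of these, 7 rose (77.8%, against 15.4% of all genes) and 2 did not pass, with a median of 0.63. P4ha2 and P4ha1, alpha subunits of collagen prolyl hydroxylase, rose by 1.22 and 0.46, and Plod2 and Plod1, the lysyl hydroxylases, by 1.02 and 0.66. Ero1a, the oxidase that passes electrons from disulphide formation to oxygen, read 10.49, 10.33 and 10.32 after hypoxia and 9.06, 9.13 and 9.00 in normoxia, a rise of 1.32 ± 0.11 (adjusted p = 2.05e-08). P4ha2 read 8.77, 8.71 and 8.62 against 7.42, 7.40 and 7.62. The groups were far apart in both genes and the pools of each lay close together. P3h2, another collagen hydroxylase of the list, was not tested, with a normoxic mean of 6.64 below the threshold. It read 6.20, 6.29 and 6.23 against 6.74, 6.66 and 6.53. Without normoxia pool 3, 1 gene outside the 9 tested passed the filter and was called lower.

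Other oxygen-dependent dioxygenases moved both ways. Of 27 JmjC histone demethylases and related hydroxylases and TET enzymes, 6 rose and 3 fell, with a median of 0.07. The called share of 33.3% was that of the background, 33.8% of all genes tested. Tet2, which oxidises methylcytosine, rose by 1.04, and normoxia pool 2 read 9.18 where the other normoxic pools read 8.10 and 8.45. Jmjd6, a lysyl hydroxylase of splicing proteins, rose from 9.20, 9.07 and 9.09 to 9.99, 10.10 and 10.21. The histone demethylases Kdm4b, Kdm3a and Kdm6b rose by 0.85, 0.82 and 0.65, and Phf8, another demethylase, fell by 0.87. Without normoxia pool 3 the falls of the list numbered 1.

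Most genes of the amino acid response rose. Of 25 tested, 15 rose (60%, against 15.4% of all genes) and 1 fell, with a median of 0.53. Slc7a1 read 10.84, 10.40 and 10.79 in its brightest probe set after hypoxia and 8.53, 8.53 and 8.49 in normoxia, a rise of 2.16 ± 0.17 (adjusted p = 9.64e-09). Slc7a5, the leucine transporter, read 10.25, 9.73 and 10.10 against 8.96, 8.66 and 8.33, a rise of 1.38. Ddit3, the stress transcription factor CHOP, rose by 0.83. These 3 genes shared a pattern among the hypoxic pools, with hypoxia pool 2 the lowest.

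The same order of pools was seen in other members. Mthfd2, a mitochondrial folate enzyme, read 8.44, 7.04 and 8.22 after hypoxia and 7.03, 6.99 and 7.05 in normoxia, so hypoxia pool 2 lay at the normoxic level and the groups overlapped, with a fitted rise of 0.88 (adjusted p = 0.0025). Atf4, the transcription factor of this response, read 12.25, 11.94 and 12.23 against 11.56, 11.57 and 11.53, and Asns, asparagine synthetase, 9.84, 9.21 and 9.67 against 9.14, 9.03 and 8.95, both chosen after their values were seen. Cth, which makes cysteine, fell by 0.54. Nupr1, a stress gene of the list, was called at 1.54 and rested on normoxia pool 2, in which it read 6.74 against 10.05 and 10.13. Without that pool it was 0.42 (adjusted p = 0.436), without hypoxia pool 1 1.28 (adjusted p = 0.162), and without hypoxia pool 2 1.45 (adjusted p = 0.112).

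Aminoacyl-tRNA synthetases, which charge tRNAs and are partly under Atf4 control, rose in part. Of 18 cytosolic synthetase genes tested, 9 rose, 2 fell and 7 did not pass, with a median of 0.31. The called share was 61.1%, against 33.8% of all genes tested. Cars, the cysteine enzyme, read 10.04, 9.16 and 9.96 after hypoxia and 8.13, 8.18 and 8.24 in normoxia, a rise of 1.53 ± 0.16 (adjusted p = 3.2e-07). Mars1, Gars, Aars and Tars, for methionine, glycine, alanine and threonine, rose by 0.82, 0.81, 0.75 and 0.75. Hars, for histidine, and Farsb, of the phenylalanine enzyme, fell by 0.32 and 0.34.

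The C/EBP-ATF element, the motif that Atf4 and its partners bind, was searched as TGATGNAAT on both strands in the same promoters. It stood in 1.08% of all genes with a promoter and in 41 of the 8301 tested (0.494%), of which 8 rose, 8 fell and 25 were not called. Slc17a1, a phosphate transporter gene chosen after its value was seen, fell by 1.19, the largest fall among them. It was found in 3 of the 12 tested synthetase genes with a promoter, Aars, Gars and Iars, and in 1 of 22 genes of the amino acid list. The stretches around the match are shown because these are the synthetases that carry it, and all 3 rose, Iars by 0.47. Capitals mark the element, read here as its reverse complement.
Aars: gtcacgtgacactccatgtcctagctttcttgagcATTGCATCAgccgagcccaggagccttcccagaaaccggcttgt
Gars: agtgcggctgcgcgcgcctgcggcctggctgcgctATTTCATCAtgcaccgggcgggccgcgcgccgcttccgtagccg
Iars: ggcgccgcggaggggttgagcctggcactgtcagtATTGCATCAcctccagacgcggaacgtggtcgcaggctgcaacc
They lie at chr8:111033694-111033772, chr6:55037935-55038013 and chr13:49682101-49682179, all on the plus strand. A search for the heat shock element, on both strands, found it in 0.662% of all genes with a promoter, in 4 of 21 tested heat shock genes and in none of the 99 genes with a promoter among the 120 that rose by over 2-fold.

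The lists of the unfolded protein response and of heat shock held calls in both directions. Of 26 genes of the unfolded protein response of the endoplasmic reticulum, 6 rose and 3 fell, with a median of -0.02. The called share was 34.6%, against 33.8% of all genes tested, and without hypoxia pool 1 only 1 rose. Dnajb11, an endoplasmic reticulum chaperone, rose by 0.27 and Creld2, a chaperone-like target of the response, fell by 0.38. Of 24 heat shock genes, 4 rose (16.7%) and 7 fell (29.2%), against 15.4% and 18.5% of all genes tested. Hspa1b and Hspa1a, the inducible Hsp70 genes, which are near-identical copies and may share signal, fell by 1.45 and 1.32 in their brightest probe sets. Hspa1a read 8.34, 8.36 and 8.13 after hypoxia and 9.59, 9.55 and 9.64 in normoxia, so the pools were far apart, and the co-chaperones Chordc1 and Ahsa2 fell by 0.99 and 0.88.

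The rises in the heat shock list were fewer and less even. Hspb1, a small heat shock protein, read 11.73, 9.31 and 9.05 after hypoxia and 8.84, 8.52 and 8.31 in normoxia, a rise of 1.47 led by hypoxia pool 1, without which it was 0.63 (adjusted p = 0.263). It also lost its call without normoxia pool 2 (1.46, adjusted p = 0.0609) or normoxia pool 3 (1.35, adjusted p = 0.0885). Hspa4, a relative of Hsp110, rose by 0.48. The rises of the list numbered 2 without hypoxia pool 1 and 2 without normoxia pool 2.

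The translation machinery moved in parts. None of 43 cytosolic ribosomal protein genes was called by limma, 2 had an unadjusted p below 0.05, and changes ran from -0.14 to 0.19. 1 gene was called without normoxia pool 1, and averaging all probe sets of a gene called 3 higher and 1 lower. Of 76 mitochondrial ribosomal proteins, 25 fell (32.9%, against 18.5% of all genes tested) and 11 rose (14.5%, against 15.4%). The rises numbered 5 without hypoxia pool 3 and 7 without normoxia pool 3. Mrpl34 read 8.48, 8.54 and 8.44 after hypoxia and 9.39, 9.35 and 9.26 in normoxia, a fall of 0.85, and Mrpl54 rose by 0.42. Of 53 genes with the symbols of initiation and elongation factors, 12 rose (7 without hypoxia pool 3) and 8 fell. The called share was 37.7%, near the 33.8% of all genes tested. Eif2s2 and Eif5, of start codon selection, rose by 0.52 and 0.50, and Eif2b3, of the exchange factor for eIF2, fell by 0.51.

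**Figure D3:**
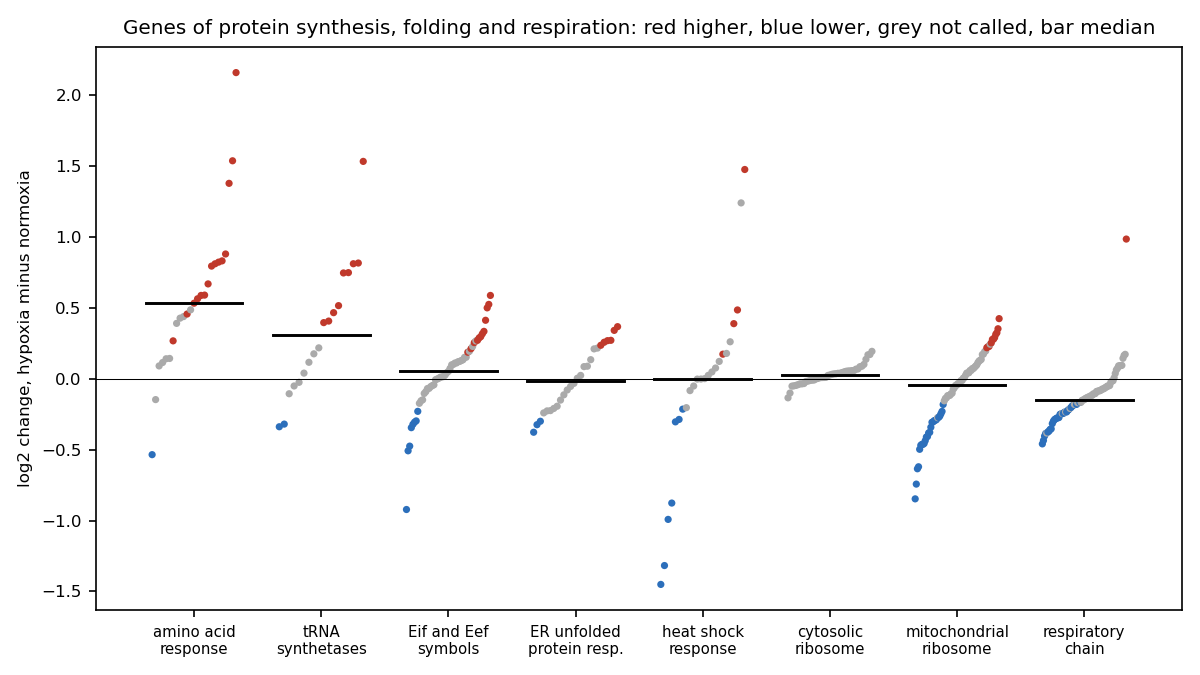
The log2 difference, hypoxia minus normoxia at 0 h, is drawn for each tested gene of 8 lists of amino acid supply, protein synthesis and respiration, with called genes in red (higher) or blue (lower), other genes in grey and a bar at the median of each list. The amino acid response and the tRNA synthetases lie mostly above 0 (medians 0.53 and 0.31), the respiratory chain mostly below (-0.15), and the cytosolic ribosomal proteins stay within -0.14 to 0.19.

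Vessel genes moved both ways. Of 17 angiogenic and vasoactive genes tested, 6 rose, 5 fell and 6 did not pass, 64.7% called against 33.8% of all genes. Among the ligands, adrenomedullin (Adm) read 6.76, 7.12 and 7.29 after hypoxia and 5.33, 5.10 and 5.36 in normoxia, a difference of 1.79 ± 0.17 from below the threshold (adjusted p = 6.68e-08). Vegfa, the main endothelial growth factor, rose from 8.60, 8.78 and 8.68 to 9.37, 9.47 and 9.70, by 0.83, endothelin Edn1 by 0.95 and apelin Apln by 0.73. Among the receptors, Kdr, the signalling receptor for Vegfa, read 9.26, 9.14 and 9.24 against 9.80, 10.26 and 9.72, a fall of 0.71, and Ramp3, a subunit of the adrenomedullin receptor, fell by 0.63. The receptor genes Flt1 and Ramp2 differed by 0.26 and 0.01 and the ligand gene Vegfb by 0.23, none of them called (adjusted p = 0.101, 0.965 and 0.0919). Whether ligands and receptors differ as classes was not tested.

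Kdr is an endothelial gene, and the other endothelial markers bear on its reading. Of 27 endothelial and pericyte markers on the array 16 were above the threshold. Of these, 3 rose and 2 fell, 31.2% called against 33.8% of all genes. The log2 of the summed signal of all 27 was 13.19 to 13.21 after hypoxia against 12.93 to 12.99 in normoxia. Slc2a1 carries much of that sum and rose by 0.59, and the median change of the 16 genes was 0.01. The higher sum is therefore not a rise of the markers as a set. Apold1, an endothelial gene of acute stress, rose from 5.88, 6.03 and 5.51 to 7.68, 8.02 and 8.10, and Mfsd2a, a lipid transporter of the blood-brain barrier, differed by 1.04. In pooled tissue, fewer cells of a type and less RNA per cell cannot be told apart.

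Most genes known to be induced by glucocorticoids rose, and so did part of the clock genes. Of 22 tested, 18 rose (81.8%, against 15.4% of all genes) and 4 did not pass, with a median of 0.82. Fkbp5, a chaperone of the glucocorticoid receptor, read 10.27, 10.48 and 10.22 after hypoxia and 8.80, 8.80 and 8.78 in normoxia, a rise of 1.53 ± 0.12 (adjusted p = 5.77e-09). Arrdc2, an arrestin-domain gene, and Lcn2, lipocalin 2, differed by 2.12 and 1.97 from below the threshold, and Mt1 and Mt2 also belong to this list. Of 20 clock genes, 10 rose, 3 fell (1 without normoxia pool 2) and 7 did not pass. Their called share was 65%, against 33.8% of all genes. Ciart, a repressor of Clock and Arntl, read 9.69, 9.24 and 9.56 against 8.04, 8.24 and 8.05, a rise of 1.38, Per1 rose by 0.99, and Dbp, an output gene of the clock, fell by 0.35.

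Growth arrest genes held some large rises. Of 20 Gadd45, sestrin, Cdk inhibitor and p53 target genes, 8 rose, 2 fell and 10 did not pass. The called share was 50%, against 33.8% of all genes tested. The rises numbered 5 without hypoxia pool 1 and the falls 1 or 0 without 5 of the 6 pools in turn. Gadd45b read 10.03, 8.90 and 9.42 after hypoxia and 7.47, 7.39 and 7.04 in normoxia, with hypoxia pool 2 again the lowest of its group. Gadd45g and Sesn1, a brake on growth signalling, rose by 0.94 and 0.83. Among Id and Hes genes, repressors of differentiation, Id1 rose by 1.21 from 6.91, 6.91 and 7.02 to 8.09, 8.23 and 8.16, while Hes5, a Notch target, fell by 0.84. Of 15 genes of that list 5 rose and 4 fell, a called share of 60%. The falls numbered 1 or 2 when any 1 pool was left out.

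Mitophagy was represented by a single large rise. Of 33 genes of autophagy and mitophagy, 7 rose (4 without hypoxia pool 3) and 6 fell, 39.4% called against 33.8% of all genes tested. Bnip3, a mitochondrial receptor for autophagy, read 12.60, 12.75 and 12.73 after hypoxia and 11.69, 11.57 and 11.23 in normoxia, a rise of 1.20 ± 0.10 (adjusted p = 2.84e-08). Ulk1, the kinase that starts autophagy, rose by 0.58 and its paralogue Ulk2 fell by 0.60, from 9.49, 9.42 and 9.46 to 8.85, 8.92 and 8.80.

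Lipid genes moved both ways. Of 35 genes of fatty acid binding, storage and oxidation, 9 rose, 24 did not pass and 2 fell (1 without hypoxia pool 3 or normoxia pool 3). The called share was 31.4%, against 33.8% of all genes tested. Fabp4, a fatty acid carrier, read 7.60, 7.77 and 7.72 after hypoxia and 5.60, 6.48 and 5.58 in normoxia, a difference of 1.81 from below the threshold, and Pnpla2, the lipase of lipid droplets, rose by 0.80. Of 26 cholesterol genes, 7 fell (4 without hypoxia pool 2), 2 rose and 17 did not pass, a called share of 34.6%. Idi1 and Fdps, of isoprenoid synthesis, fell by 0.50 and 0.44, and Srebf1, which regulates lipid synthesis, rose by 0.69.

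**Figure D4:**
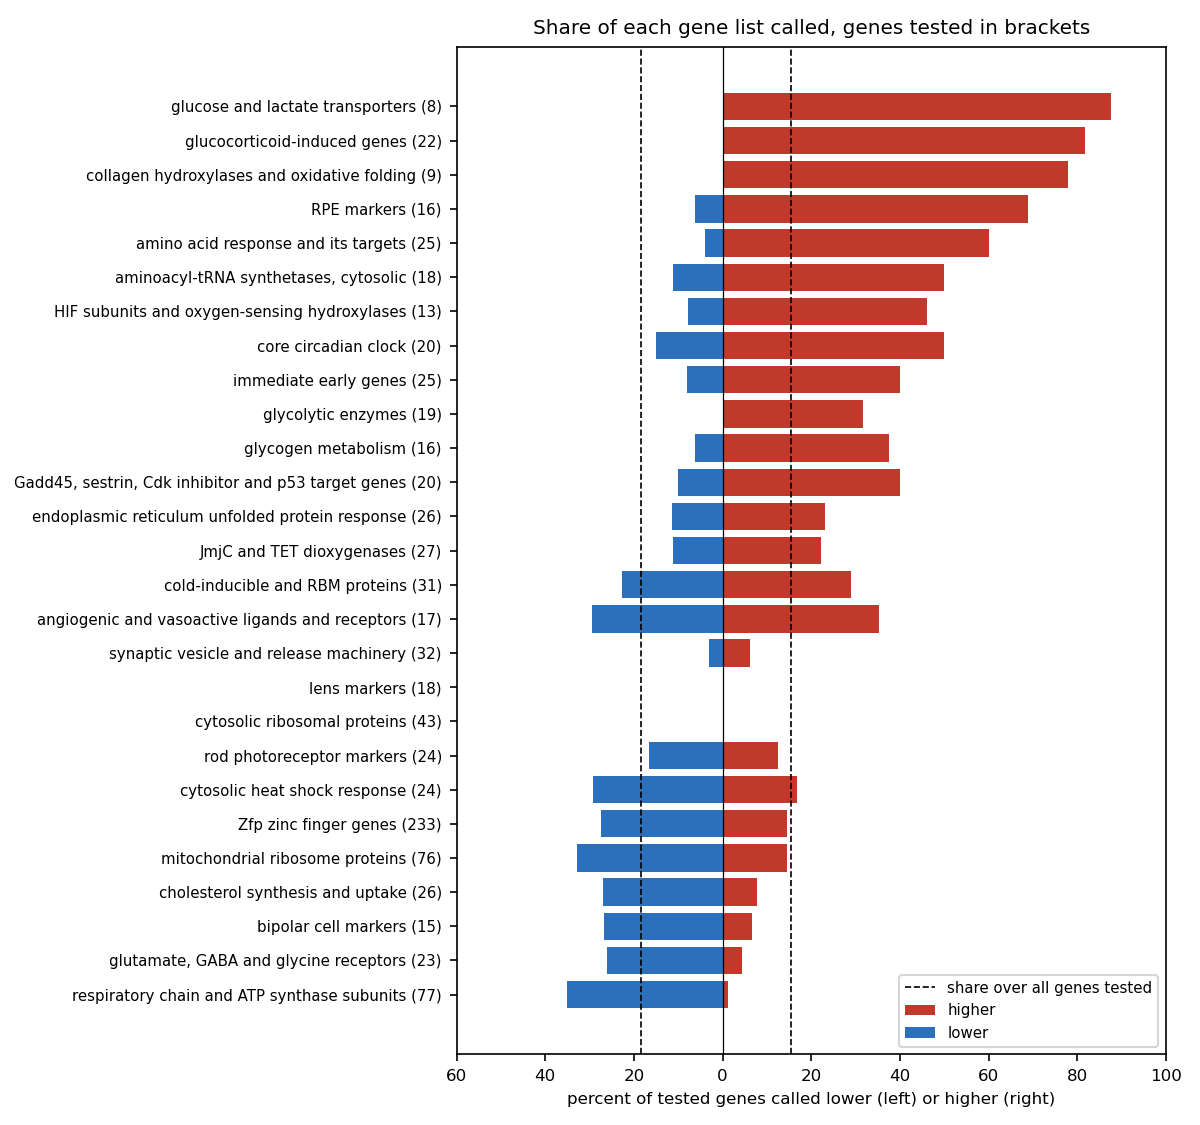
For each list shown, with its number of tested genes in brackets, the bars give the share of genes called lower (left) and higher (right) at 0 h, and the dashed lines give the same shares over all 10174 genes tested, 15.4% higher and 18.5% lower. The glucose and lactate transporters (87.5% higher) and glucocorticoid-induced genes (81.8% higher) lie far above the line, the glycolytic enzymes (31.6% higher) lie above it with no gene lower, and the cytosolic ribosomal proteins and lens markers have no called gene. The lists were written with earlier results of these data known.

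Genes of the RPE made up many of the largest rises, and their markers moved with the group. Of 24 RPE markers on the array 16 were above the threshold. Of these, 11 rose (68.8%, against 15.4% of all genes) and 1 fell (Mitf), with a median of 0.63. The log2 of the summed signal of all 24 was 14.62 to 14.67 in the hypoxic pools and 14.08 to 14.17 in the normoxic pools. Rgr, an RPE opsin of the visual cycle, read 9.96, 10.05 and 10.29 after hypoxia and 6.34, 6.85 and 6.41 in normoxia, a difference of 3.57 ± 0.41 (adjusted p = 1.14e-06). Rpe65, the isomerase of the visual cycle, read 9.35, 9.24 and 9.20 against 5.41, 6.08 and 5.86, Rdh5, its retinol dehydrogenase partner, differed by 2.60, and Dct and Tyrp1, of pigment synthesis, by 2.75 and 1.82. In these 5 genes every hypoxic pool was above every normoxic pool, as in 21.6% of all genes tested. For Rgr, Rpe65, Rdh5 and Dct this was a condition for naming them among the largest rises.

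RPE markers did not all change. Rlbp1, shared with Müller glia, read 11.63, 11.68 and 11.77 against 11.69, 11.74 and 11.63, Rdh10 rose by 0.36, and Mitf, the transcription factor of pigment cells, was called at -0.44 with hypoxia pool 1 within the normoxic range. Mitf lost its call without hypoxia pool 2 (-0.33, adjusted p = 0.102), hypoxia pool 3 (-0.32, adjusted p = 0.119) or normoxia pool 2 (-0.37, adjusted p = 0.074). The median of the list was 0.39 without hypoxia pool 3. Other genes known from the RPE rose in other lists: the lactate transporter Slc16a8 by 0.89, the potassium channel gene Kcnj13 by 1.82 and Timp3, an inhibitor of matrix proteases, by 1.32. The amount of RPE tissue in the pools was not measured, and the part of the RPE markers in the rises of Ttr, Kcnj13, Timp3 and Slc16a8 was not tested.

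Rod and bipolar markers differed little in sum. The log2 of the summed rod marker signal was 17.59 to 17.63 after hypoxia and 17.68 to 17.71 in normoxia. Of 24 rod markers 3 rose and 4 fell (29.2% called, against 33.8% of all genes tested), with a median of -0.05. The rises were those of Samd7 (1.11), Samd11 (0.39) and the guanylate cyclase gene Gucy2e (0.66). Gngt1 and Pde6g, subunits of rod transducin and phosphodiesterase, fell by 0.60 and 0.32, and recoverin, Rcvrn, read 13.11, 12.94 and 12.98 against 13.54, 13.55 and 13.40, a fall of 0.49. Gnat1, the alpha subunit of rod transducin, chosen after its values were seen, read 14.06, 14.12 and 14.09 against 14.17, 14.18 and 14.16, a difference of -0.08 (adjusted p = 0.361). The summed bipolar marker signal was 14.36 to 14.43 against 14.50 to 14.59. Of 15 bipolar genes tested 4 fell (2 without hypoxia pool 1 or normoxia pool 3) and 1 rose. Their called share was 33.3%, that of the background. Cabp5, a calcium sensor of bipolar cells, fell by 0.58.

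Glial and channel genes held a few larger changes, in lists with a smaller called share than all genes tested. Crb1, a polarity gene of Müller glia and photoreceptors, read 10.56, 11.08 and 10.85 after hypoxia and 12.00, 11.91 and 11.93 in normoxia, a fall of 1.12 ± 0.12 (adjusted p = 3.21e-07). Car14, the carbonic anhydrase of Müller glia, rose by 1.19. Of 21 Müller markers 16 did not pass, and 23.8% were called, against 33.8% of all genes tested. Kcna5, a potassium channel gene, fell from 10.65, 10.67 and 10.61 to 9.52, 9.58 and 9.48. It was 1 of 7 falls among 68 voltage-gated channel genes, of which 55 did not pass (19.1% called). Of 32 genes of synaptic vesicles 29 did not pass (9.38% called).

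**Figure D5:**
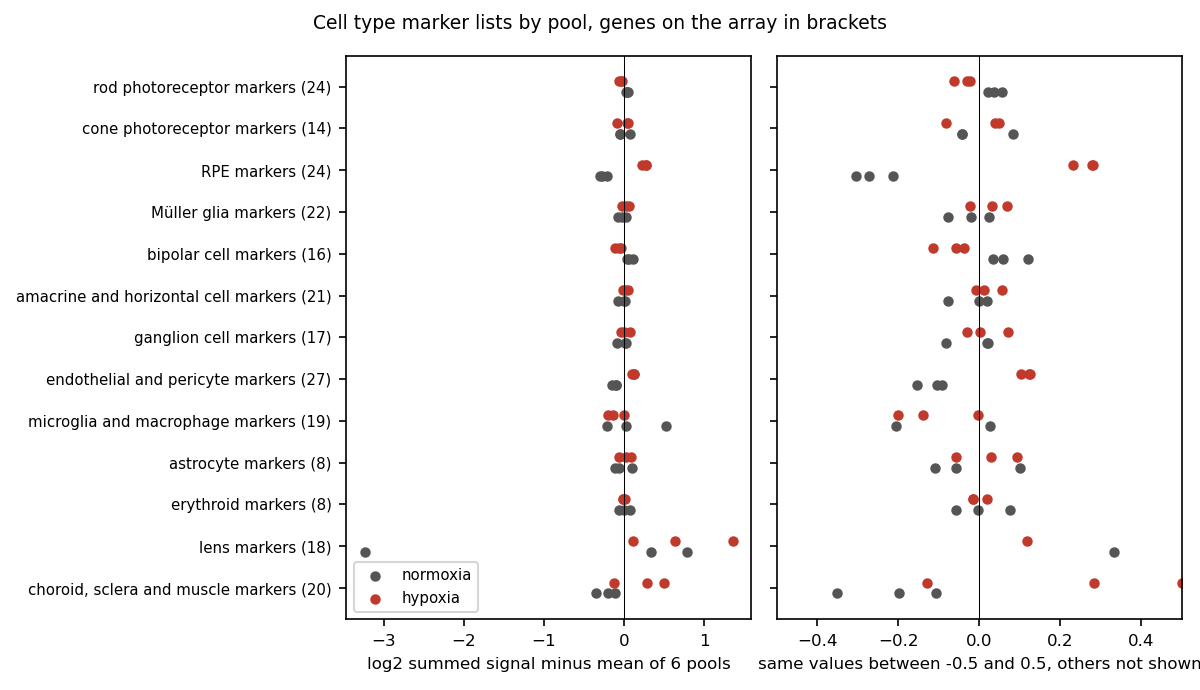
For each marker list the log2 of the summed signal in each of the 6 pools is drawn relative to the mean of the 6. The left panel shows all values and the right panel those from -0.5 to 0.5. The RPE and endothelial sums are higher in all 3 hypoxic pools, the rod and bipolar sums are lower in all 3, and normoxia pool 2 is far below the others for the lens list. The endothelial sum includes Slc2a1, which rose by 0.59, and the median change of the endothelial list was 0.01.

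Matrix and stress genes included several that rested on normoxia pool 2, the pool with little lens signal. Of 32 genes of collagens, laminins and matrix proteases, 8 rose and 2 fell, 31.2% called against 33.8% of all genes tested. Col4a1, the main basement membrane collagen, read 10.65, 10.77 and 10.40 after hypoxia and 9.91, 8.53 and 9.79 in normoxia, a rise of 1.20 that was 0.76 without normoxia pool 2 (adjusted p = 0.0294). Its partner Col4a2 went from 0.98 to 0.60 and lost its call (adjusted p = 0.072). Igfbp7, which binds insulin-like growth factors, went from 1.39 to 0.55 (adjusted p = 0.188), and missed the threshold without hypoxia pool 1 (1.35, adjusted p = 0.0587) or hypoxia pool 2 (1.29, adjusted p = 0.0659). Adamts1, a secreted protease, rose by 0.84 from 8.09, 7.99 and 7.59 to 8.75, 8.54 and 8.91, and the 2 falls numbered 1 without hypoxia pool 1 or 2 or normoxia pool 2 or 3.

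Some of the acute changes were smaller after reoxygenation, by a test of the difference itself in the same limma fit. The difference between the effects at 0 h and 2 h is given here for the 5 largest rises and the 5 largest falls. These are genes with both means above the signal threshold, so Obox6, Rgr, Rpe65, Cdkn1a and Irf3 are not among them. The genes were picked for large effects at 0 h on the same arrays, so a smaller effect at 2 h is partly built in. The test passed for Ttr (3.75 at 0 h, 1.12 at 2 h), Samd7 (2.71 and -0.09), Fbxo30, Malat1, AI847159 and Rd3. The Samd7, Fbxo30 and Malat1 values are each from the probe set with the larger change and not from the brightest. It did not pass for Mt2 (2.75 and 2.26, adjusted p = 0.554), Mt1 (2.21 and 2.17, adjusted p = 0.958), Slc7a1 (adjusted p = 0.283) or Pnpla3 (adjusted p = 0.0545). The medians of the lists at 0 h and 2 h were 0.53 and 0.02 for the amino acid response, 0.63 and 0.02 for the collagen hydroxylases and -0.04 and 0.15 for the mitochondrial ribosomal proteins.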

How the data were processed

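The deposited values were used as given: log2 signals of 45037 non-control probe sets on 24 Affymetrix mouse whole-genome arrays, which the authors background-corrected and normalized between arrays by RMA (the version is not given in the sources used here). The authors made their own gene lists from another summary (GCRMA). RNA was extracted from frozen retinas with DNase treatment and hybridised as biotinylated cRNA. RMA shrinks small signals towards each other, so differences of dim genes are understated, and 3 arrays per group limit the precision.

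One model of 8 group means was fitted to all 24 arrays with limma 3.58.1 in R 4.3.3 (16 residual degrees of freedom), with empirical Bayes moderation over all non-control probe sets and Benjamini-Hochberg adjustment over the 18799 probe sets tested. Probe sets were tested where the mean of either group reached 6.69. Of the probe sets, 34945 had 1 gene symbol, 932 had several and 9160 had none, and only those with 1 were named. The genes named were the 15 largest rises and 15 largest falls with both means above the threshold and non-overlapping pools, the 10 largest of each with 1 mean below it, up to 5 called genes in each direction per list, the HIF genes and the defining markers. Others are said to be chosen after their values were seen. The members and lists were chosen with earlier results of these data known. The 2 most similar arrays correlated at 0.9962, so none was taken for a copy. The self-test on simulated data set 50 probe sets at each of 4 sizes. Promoters come from RefSeq (build GRCm38.p6). The alternatives were another normalization or filter, other spreads, the methods' t-test, a replicate block and leaving out each pool.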

Additional observations from a re-analysis of the deposited data

Results flagged for a closer look

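Of the 5 largest rises and the 5 largest falls at 0 h among genes with both means above the signal threshold, 6 had an effect that differed between 0 h and 2 h in the test of that difference (limma, adjusted over the probe sets tested at either time). The difference, 0 h minus 2 h on the log2 scale, was 2.63 for Ttr (adjusted p = 0.0246) and 2.80 for Samd7 (adjusted p = 8.95e-06). It was -1.61 for Fbxo30 (adjusted p = 0.000106), -1.62 for Malat1 (adjusted p = 0.00199), -1.30 for AI847159 (adjusted p = 6.22e-05) and -1.26 for Rd3 (adjusted p = 0.000179). At 2 h the effects of the 4 falls were between -0.25 and 0.08, none of them called. Picking genes by their 0 h effect on the same arrays favours differences of this direction. The Fbxo30 and Malat1 values belong to 1 probe set each. The brightest probe set of Fbxo30 differed by -0.11 at 0 h (adjusted p = 0.549) and 0.01 at 2 h, and that of Malat1 by -0.30 at 0 h (adjusted p = 0.475) and -0.34 at 2 h.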

How the results depend on the processing

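The count of called probe sets, 6091 in all, ran from 4809 (without hypoxia pool 3) to 5501 (without normoxia pool 1) when 1 pool was left out. It was 3844 (1782 higher, 2062 lower) with a replicate block on the 6 arrays of 0 h. It was 2803 (1336 higher, 1467 lower) by the methods' t-test after adjustment, of which 332 passed 2-fold. Of the limma calls, 427 passed 2-fold. The replicate numbers gave no clear pairing of the samples: deviations of same-numbered arrays correlated at 0.15, 0.03 and -0.24, and 2 of 6 arrays correlated best with their own number. With 3 pools per group these values cannot exclude a pairing. No called change was reversed among the results tried. Some changes that were not called did change sign, such as that of the lens gene Cryaa, from 1.22 to -0.01 without normoxia pool 2. Moderating the spread over the tested probe sets, an alternative chosen after seeing the data, gave 6512 calls.

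List medians moved with the choice of genes, and the cause was not tested. The glucose and lactate transporters (0.47) had 0.31 with no filter on signal, 0.37 with a threshold higher by 1 and 0.63 with the probe sets of each gene averaged. The collagen hydroxylases (0.63) had 0.16, with low genes let in, and 0.75 with them averaged, and 0.51 to 0.72 with 1 pool left out. The RPE markers (0.63) had 0.74 with no filter, 0.36 with the higher threshold, 1.12 averaged, and 0.39 to 0.70 with 1 pool left out. The glucocorticoid-induced genes (0.82) had 0.68 with no filter, and the glycolytic enzymes (0.23) 0.10 without normoxia pool 3. Of 387 named probe sets, 373 were called and 174 of these kept the same call under every alternative. 86 lost it without 1 pool.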

Other observations

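Several groups not described above held named changes at 0 h. Of 233 Zfp zinc finger genes, 64 fell (27.5%, against 18.5% of all genes tested) and 34 rose (14.6%, against 15.4%). The rises numbered 22 without hypoxia pool 3. Zfp467, a zinc finger transcription factor, read 7.73, 7.45 and 7.22 after hypoxia and 8.57, 8.74 and 8.62 in normoxia, and Zfp653 read 8.77, 8.97 and 9.01 against 7.85, 8.18 and 7.83. Among RNA-binding proteins of the RBM family, 9 of 31 rose and 7 fell, 51.6% called against 33.8% of all genes tested. Cirbp, which is induced by cold, rose from 10.73, 10.87 and 10.99 to 11.41, 11.49 and 11.56, a change of 0.63 ± 0.12 (limma adjusted p = 0.000322). The small nucleolar RNA host genes Snhg1, Snhg5 and Snhg12, all of which lie on the list of nuclear long non-coding RNAs, rose by 1.23, 0.85 and 0.77. They were the 3 rises among 21 genes of that list (14.3%, against 15.4% of all genes), of which 1 fell and 17 did not pass. Snhg1 read 10.28, 10.04 and 10.26 against 8.85, 9.03 and 9.01.

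Cell cycle genes moved in both directions. Of 16 genes of mitosis and replication tested, 4 rose and 4 fell, 50% called against 33.8% of all genes tested. Cdt1, which licenses replication origins, read 9.55, 9.47 and 9.43 after hypoxia and 8.26, 8.04 and 8.10 in normoxia, a rise of 1.35, and Mcm7, of the replicative helicase, fell by 0.74 from 9.16, 9.23 and 9.00 to 8.25, 8.60 and 8.32.

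By chromosome, as a description noticed after the values were seen, the X chromosome had 26 of 316 tested genes higher (8.23%) and 89 lower (28.2%), with a median of -0.10. The sexes of the mice in the pools were not used here, and their part in this difference was not tested. Over the autosomes the share lower ran from 12.7% (chromosome 15) to 21.7% (chromosome 6), and the share higher from 11.7% (chromosome 13) to 20% (chromosome 8).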
